A study of Mus musculus with 36 samples.

Results

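The cytosolic ribosomal protein genes are the genes for the protein parts of the ribosome that works in the cytoplasm. They were chosen by symbol: a protein-coding gene named Rpl or Rps with a number, a letter or a paralog suffix where the name carries one, or named Rplp0, Rplp1, Rplp2 or Rpsa. Pseudogenes and the S6 kinases, whose symbols start with Rps6k, were left out. The rule found 84 of 57010 gene identifiers, 52 of the large and 32 of the small subunit, and 83 of them had at least 1 count. Fau encodes a ribosomal protein under another name and is described beside the set.

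The RNA was pulled down from mouse olfactory epithelium with an antibody to phosphorylated ribosomal protein S6 (pS6), the product of Rps6, which is one of the 84 genes. All mice were 8-week-old wild-type C57BL/6J males, habituated in odor-free air over 4 h. An exposure of 90 min followed, with filter paper that carried 10 µL of the odorant or fragrance or, for the controls, nothing. There were 36 libraries in 12 groups of 3 biological replicates, in 3 sets that the labels give as batches. The AD set held acetophenone, decanal, their 1:1 mixture and no-odor controls, the OC set held octanal, cis-3-hexenol, their 1:1 mixture and no-odor controls, and the FM set held a floral fragrance, a mint fragrance, a floral-mint fragrance and no-odor controls. Comparisons with controls stayed within a set.

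Ribosomal proteins are made in near-equal amounts, since each ribosome holds a single copy of most of them. Their mRNAs start with a run of pyrimidines, the terminal oligopyrimidine (TOP) tract, through which mTOR signaling and the protein LARP1 control how many of them are translated. S6 is phosphorylated by S6 kinases in neurons that have fired, and the antibody therefore enriches ribosomes of active cells together with the mRNA that they carry. The level of a gene in such libraries is meant to reflect how much of its mRNA is on pS6-bearing ribosomes. All 36 libraries were immunoprecipitates, so total mRNA and RNA carried over without pS6 cannot be told apart from it. Fewer cells of a type and less RNA per cell cannot be told apart in these libraries either.

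The start of the transcript is shown for 8 members, because the TOP tract is the shared regulatory element of these mRNAs. The 8 were picked, with their values known, to show windows with and without a run of at least 7 bases of C or T. Such a run can lie anywhere in the window, and whether it is a TOP tract was not tested. Each window runs from 10 bases before to 20 bases after the RefSeq start of the gene (build GRCm38.p6), on the strand of the gene, and capitals mark the longest unbroken run of C or T where it has at least 7 bases. Rps6, the target of the antibody, starts in chr4:86857348-86857377 (minus strand). Rps12, a small subunit protein with the widest change in the set, starts in chr10:23787190-23787219 (minus strand). Rpl35 and Rpl38, large subunit proteins, start in chr2:39005112-39005141 (minus strand) and chr11:114668570-114668599 (plus strand). Rplp2, of the ribosomal stalk, starts in chr7:141447641-141447670 (plus strand). Rpl7l1, a paralog of Rpl7 that works in large subunit assembly, starts in chr17:46782637-46782666 (minus strand). Rpl4 and Rpl5, large subunit proteins with small changes, start in chr9:64173377-64173406 and chr5:107900518-107900547 (both plus strand).
Rps6: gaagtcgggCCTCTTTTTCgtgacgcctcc
Rps12: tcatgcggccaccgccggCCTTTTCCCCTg
Rpl35: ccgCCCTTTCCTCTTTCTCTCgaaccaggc
Rpl38: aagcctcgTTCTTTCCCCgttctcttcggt
Rplp2: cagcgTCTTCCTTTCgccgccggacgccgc
Rpl7l1: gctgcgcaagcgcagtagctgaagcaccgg
Rpl4: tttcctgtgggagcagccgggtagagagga
Rpl5: cgtcgcttgcgtgctggtggtgctacatac

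The first 5 windows hold such a run and the last 3 do not. This selection does not stand for the set: the window of Rpl41, which had a log2 change of 1.09 with decanal, has a longest run of 3, and that of Rpl15, which had 0.40, has one of 17. Whether a run and a change went together was not tested. A start window was found for 64 of the 84 members, and 33 of these (51.6%) had a run of at least 7 bases of C or T in at least 1 window, against 20.5% of 27025 genes in the RefSeq table. Counted by window, 44.7% of 76 member windows held a run, against 17.9% of 32851 windows in all. The search used the strand of the gene only. An annotated start can lie some bases away from the true one, and a window without a run says only that these letters are not in it.

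Library totals ran from 16039587 to 26388104 counts, and members took between 0.888% and 5.58% of a library. Pseudogene copies, which share sequence with the members, were listed as 301 entries. Together with 7 protein-coding entries named as copies or otherwise outside the rule, they held 0.704% to 1.82% as many counts as the members. How reads of single genes were divided between a gene and its copies was not tested. The 8 listed markers of mature olfactory sensory neurons were all detected in every group. Their summed level ran from 7310 to 13718 CPM (counts scaled to a common library total, with TMM factors) over the 9 control libraries, and it was higher in all 27 odor libraries than in the controls of their set.

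The share of counts on members differed between the 3 control groups, which were separate batches, and this difference cannot be told apart from the batch. It was 1.51% ± 0.0408 in AD controls, 4.04% ± 0.584 in OC controls and 1.07% ± 0.0648 in FM controls (SD, n = 3 each). In the AD set decanal libraries had shares of 2.13%, 2.17% and 2.24%, and mixture libraries 1.78%, 2.28% and 2.23%, against 1.53%, 1.53% and 1.46% in controls. All decanal and mixture libraries lay above all controls. With acetophenone it was 1.14%, 1.20% and 1.53%, which overlapped the controls. In the OC set the direction was the other way: octanal libraries had 1.85%, 3.02% and 2.23% and mixture libraries 2.30%, 2.53% and 2.19%, against 3.60%, 4.70% and 3.81% in controls, with no overlap. With cis-3-hexenol the share was 2.99%, 4.29% and 5.58%, the widest spread of any group. In the FM set floral averaged 1.12% ± 0.0315, mint 1.04% ± 0.145 and the floral-mint fragrance 1.06% ± 0.108 (SD, n = 3 each), and all 3 overlapped the controls. The exact permutation p (2-sided) was 0.1 for decanal, the AD mixture, octanal and the OC mixture, which is the smallest that 3 against 3 allows, and 0.3 to 0.9 for the other 5 odors. Adjusted over the 9 comparisons, the 4 values became 0.225.

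**Figure D1:**
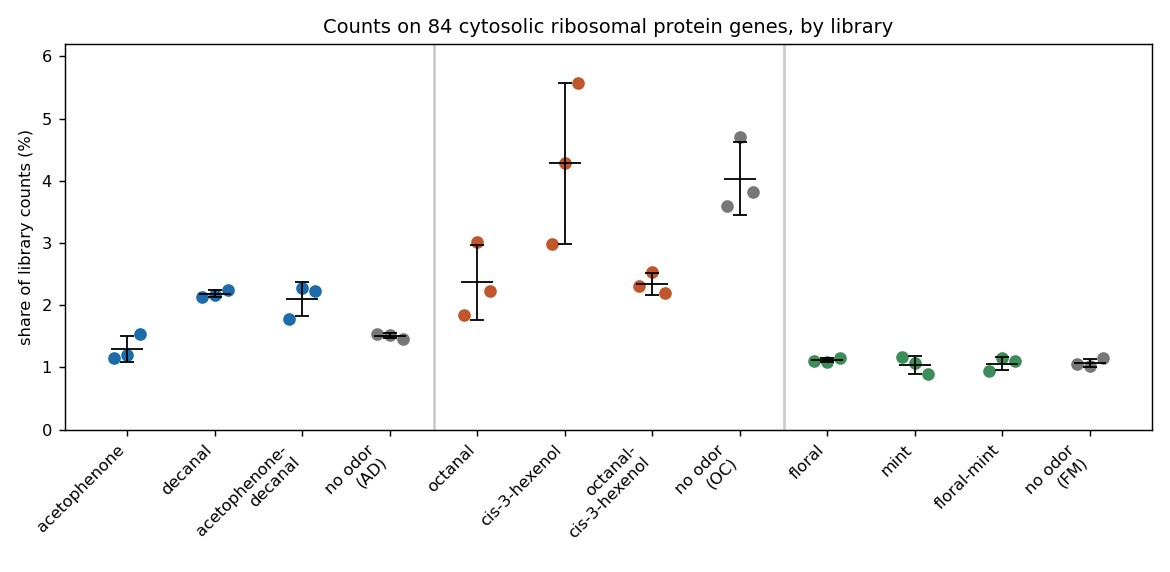
Share of library counts on the 84 ribosomal protein genes (y axis, percent), with a point per library and the mean and SD of each group as bars. Decanal and the acetophenone-decanal mixture lie above the AD controls, octanal and its mixture lie below the OC controls, and the FM groups lie between 0.888% and 1.17%.

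Levels per length were set by the shortest coding transcript of each gene and given as mean CPM per kilobase over the 36 libraries. Among the highest were Rpl13 at 1562, Rpl13a at 890.2, Rps9 at 829 and Rps19 at 765 CPM per kilobase. Rps6 had 585 CPM per kilobase and ranked 12 of 84. At the low end were 3 paralogs that in mouse are known from a few tissues. Rpl10l, a testis copy of Rpl10, had 0 counts in every library. Rpl3l, a muscle copy of Rpl3, had 0.0521 CPM per kilobase and at most 8 counts in a library, and Rpl39l, a male germ cell copy of Rpl39, had 0.367 CPM per kilobase and at most 12 counts. The next lowest were Rps20 at 43.7 and Rpl39 at 58.1 CPM per kilobase. The value of Rps20 rests on a listed transcript of 3706 bases, far above the member median of 614, and is uncertain. After the filter on low counts 81 members were tested in the AD and FM sets and 82 in the OC set, where Rpl39l passed.

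With decanal nearly the whole set was higher. In edgeR's quasi-likelihood test 75 of 81 members were higher at an adjusted p under 0.05, while 10.8% of all 19514 genes tested were, and 1 member was lower, against 11.5% of all genes. Members had a median log2 change of 0.69, a 1.61-fold higher level, beside -0.00232 over all genes. Large and small subunit members had medians of 0.67 and 0.73. Between groups, 79 members did not overlap and were higher with decanal, against 21.0% of all genes. Calls ranged from 69 to 74 when any 1 of the 6 libraries was left out. The summed level of 8 red blood cell genes was 39429 to 42201 CPM with decanal, against 15552 to 21024 CPM in controls; 2 of the 8 were called higher in edgeR and 6 were higher at an unadjusted p under 0.05. Their part in the result was not tested.

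The members with the smallest p with decanal were of both subunits. Rpl41, the smallest ribosomal protein, had 301, 312 and 329.8 CPM with decanal, against 135, 161 and 147 CPM in controls, a log2 change of 1.09 (SE 0.146, adjusted p = 0.000237 in edgeR). Rplp1, an acidic protein of the stalk that recruits elongation factors, had 198, 183 and 176 CPM with decanal, against 96.0, 104 and 105 CPM in controls, a log2 change of 0.87 (SE 0.118, edgeR adjusted p = 0.000252). Neither gene overlapped between groups. Rps24 and Rpl23 changed by 0.82 and 0.69 on the log2 scale (edgeR adjusted p = 0.000242 and 0.000256). The stalk proteins Rplp0 and Rplp2 rose by 0.59 and 0.55, and Rpsa, also known as the laminin receptor, rose by 0.43.

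Rps12 had the largest log2 change of any member with decanal, 1.45 (SE 0.199, edgeR adjusted p = 0.000275). It had 54.9, 55.9 and 65.7 CPM with decanal, against 25.5, 19.5 and 19.3 CPM in controls. Rpl7l1 was the single member to fall, to 116.5, 122 and 113 CPM with decanal, against 130.1, 153 and 149 CPM in controls, a log2 change of -0.30 (SE 0.0886, edgeR adjusted p = 0.0257), a call that was lost with libraries scaled to the median olfactory receptor gene. The 5 members that were not called, Rpl35a, Rpl3, Rpl4, Rpl36al and Rpl5, had log2 changes of 0.16 to 0.28, all above 0.

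The mixture of acetophenone and decanal gave values close to those of decanal. In edgeR 72 of 81 members were higher, against 10.9% of all genes, and none was lower at an adjusted p under 0.05, against 10.4% of all genes (1 lower at an unadjusted p under 0.05, and 1 lower by DESeq2). The median log2 change was 0.63, a 1.55-fold higher level. Rplp1 had 181, 183 and 188 CPM with the mixture, against 96.0, 104 and 105 CPM in controls, a log2 change of 0.86 (SE 0.118, edgeR adjusted p = 0.000321). Rps12 had 45.4, 70.3 and 54.5 CPM with the mixture, against 25.5, 19.5 and 19.3 CPM in controls, a log2 change of 1.40. Rpl38 and Rpl12 rose by 0.84 and 0.79. The decanal and mixture comparisons share their 3 control libraries.

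With acetophenone no member was higher. In edgeR 2 of 81 members were lower, against 1.27% of all genes, and none was higher, against 4.22% (0 higher at an unadjusted p under 0.05 and by DESeq2). At an unadjusted p under 0.05, 18 were lower, and DESeq2 called 9 lower, while 0 were called with libraries scaled to the median olfactory receptor gene or with the replicate number as a block. The 2 lower members were Rpl11, which also binds the p53 regulator MDM2, at 74.6, 77.6 and 89.9 CPM with acetophenone, against 95.9, 106 and 102 CPM in controls (log2 change -0.32, SE 0.0880, edgeR adjusted p = 0.0471), and Rpl35a, at 35.2, 31.97 and 36.8 CPM, against 42.3, 47.8 and 43.6 CPM in controls (log2 change -0.36, SE 0.0987, edgeR adjusted p = 0.0481). Over the set the median was -0.17, and 76 of 81 members had a value below 0. Both calls were lost without any 1 of acetophenone replicates 1 and 2 and the 3 controls, and 8 members were called lower without acetophenone replicate 3, whose member median was 0.06 above the mean of the controls.

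**Figure D2:**
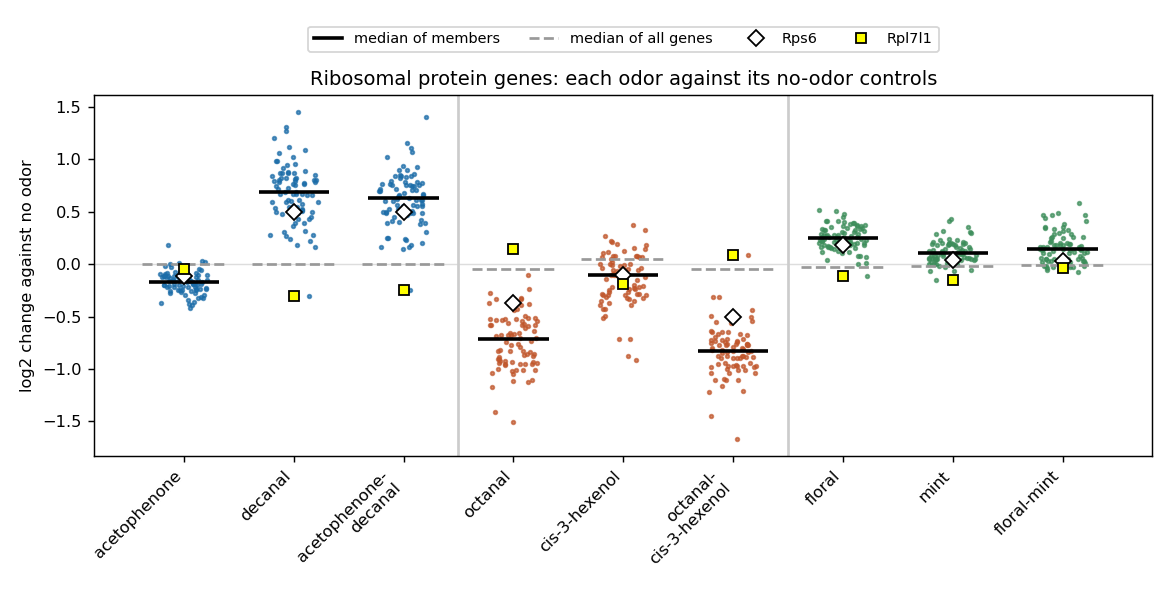
Log2 change of each tested ribosomal protein gene (y axis) for each odor against the controls of its set, with a point per gene, the median of the members as a black line, the median of all genes as a dashed line, Rps6 as a diamond and Rpl7l1 as a square. The member medians are 0.69 with decanal and 0.63 with the AD mixture, and -0.72 with octanal and -0.82 with the OC mixture.

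With octanal most of the set was lower. In edgeR 50 of 82 members were lower, against 14.4% of all 19568 genes tested, and none was higher, against 17.9% of all genes (0 higher at an unadjusted p under 0.05 and by DESeq2). The median log2 change was -0.72, a level 0.608 times that of the controls, beside -0.04 over all genes. Rps28, a small subunit protein, had 30.3, 45.01 and 34.2 CPM with octanal, against 77.6, 126 and 86.6 CPM in controls, a log2 change of -1.41 (SE 0.255, edgeR adjusted p = 0.000712). Its groups did not overlap. Rpl35a had 51.4, 94.03 and 53.4 CPM with octanal, against 113, 141 and 124 CPM in controls (log2 change -0.93, SE 0.195, edgeR adjusted p = 0.00207), and again all octanal libraries were below all controls. Rpl35 fell by 1.12 on the log2 scale (edgeR adjusted p = 0.00466).

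The octanal libraries were uneven. Measured against the mean of the controls, the median member was at -1.12, -0.25 and -0.93 on the log2 scale in octanal replicates 1, 2 and 3. The count of 50 was 15 without octanal replicate 1, 23 without octanal replicate 3, 20 without OC control replicate 2 and 78 without octanal replicate 2, while the median log2 change stayed between -0.998 and -0.58 in all 6 fits that left out 1 library. All 8 red blood cell genes were lower with octanal too, beside 14.4% of all genes. All 8 markers of mature olfactory sensory neurons were higher, beside 17.9%. The medians of these lists were -2.58 and 1.47 on the log2 scale. Their part in the members' change was not tested.

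The OC mixture, octanal with cis-3-hexenol, was also followed by lower levels. In edgeR 72 of 82 members were lower, against 14.8% of all genes, and none was higher, against 17.7% (0 higher at an unadjusted p under 0.05 and by DESeq2). Members had a median change of -0.82 on the log2 scale, a level 0.565 times that of the controls. Between groups, 79 members did not overlap and were lower with the mixture, against 24.0% of all genes. Rpl35a had 56.1, 60.7 and 52.9 CPM with the mixture, against 113, 141 and 124 CPM in controls, a log2 change of -1.16 (SE 0.195, edgeR adjusted p = 0.000411). Rps28 had 40.5, 52.7 and 32.5 CPM with the mixture, against 77.6, 126 and 86.6 CPM in controls, a log2 change of -1.21. The next in order of p were the paralogs Rps27l and Rpl36al, at -0.89 and -0.84. The count was 43 without mixture replicate 1, 23 without mixture replicate 3 and 21 without OC control replicate 2. The octanal and mixture comparisons share their 3 control libraries.

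Cis-3-hexenol left most of the set without a call. In edgeR 3 of 82 members were lower, against 3.16% of all genes, and none was higher, against 2.58% (0 higher at an unadjusted p under 0.05 and by DESeq2). The 3 were Rpl35a at -0.92, Rps27l at -0.88 and Rpl36al at -0.71 on the log2 scale (SE 0.194, 0.191 and 0.196, edgeR adjusted p = 0.0145, 0.0167 and 0.0434). Rps27l had 75.7, 72.6 and 84.6 CPM with cis-3-hexenol, against 123, 156 and 149 CPM in controls, with no overlap. The 3 calls were reduced to 1 without cis-3-hexenol replicates 2 or 3 or OC control replicate 3, and to 0 without cis-3-hexenol replicate 1. The median log2 change was -0.11. The share of counts was 0.248 percentage points higher with cis-3-hexenol than in controls, a difference that turned to -0.399 without cis-3-hexenol replicate 3. The 3 libraries were uneven, with the median member at -0.60, -0.13 and 0.29 against the mean of the controls, and the median change was 0.11 without cis-3-hexenol replicate 1. With libraries scaled to the median olfactory receptor gene 33 members were lower with cis-3-hexenol.

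Few members were called with the fragrances. With floral 3 of 81 members were higher in edgeR, against 8.70% of all 19204 genes tested, and none was lower, against 5.35% (0 lower at an unadjusted p under 0.05 and by DESeq2). Rplp1 had 98.7, 97.5 and 116 CPM with floral, against 72.9, 70.8 and 73.8 CPM in controls, a log2 change of 0.52 (SE 0.135, edgeR adjusted p = 0.0205). Rpl41 had 197, 215 and 244 CPM with floral, against 150.03, 152 and 160.2 CPM in controls (log2 change 0.51, edgeR adjusted p = 0.0288). Rps13 changed by 0.40 (edgeR adjusted p = 0.0375). The groups did not overlap for these genes, and over the set 60 members did not overlap and were higher with floral, against 19.4% of all genes. The median change was 0.25. At an unadjusted p under 0.05, 33 members were higher, DESeq2 called 20 and the fit without the filter on low counts 27, while 0 were called with receptor scaling and 1 with the replicate block.

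With floral-mint 2 of 81 members were higher in edgeR, against 6.42% of all genes. There 14 were higher at an unadjusted p under 0.05, DESeq2 called 9 and the fit without the filter 12, while 0 were called with receptor scaling and 1 with the replicate block. Rpl41 had 192, 264 and 234 CPM with floral-mint, against 150.03, 152 and 160.2 CPM in controls (log2 change 0.58, SE 0.142, edgeR adjusted p = 0.0178), and Rplp1 changed by 0.47 (edgeR adjusted p = 0.0423). None was lower, against 3.22% of all genes (0 lower at an unadjusted p under 0.05 and by DESeq2). With mint no member was called in edgeR, while 7.10% of all genes were higher and 4.07% lower. At an unadjusted p under 0.05, 5 were higher and 1 was lower with mint, and DESeq2 called 3 higher. Rplp1 and Rpl41 had log2 changes of 0.42 and 0.43 with mint (edgeR adjusted p = 0.0634 and 0.0644). The floral count fell to 0 without floral replicate 3 or any 1 of the controls and to 1 without floral replicate 2. The floral-mint count was 8 without floral-mint replicate 1, 1 without FM control replicate 2 and 0 without floral-mint replicates 2 or 3 or FM control replicates 1 or 3, and the mint count was 12 without mint replicate 3. The median log2 changes were 0.11 with mint and 0.15 with floral-mint, whereas the shares of counts were 0.0281 and 0.0111 percentage points lower than in controls (differences of -0.0281 and -0.0111), and both differences turned sign without some single libraries.

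Mixtures were set directly beside their components to ask which component they resembled. These log2 changes are between odor groups only, but the controls of the set were part of the fit that gave the scaling and the spread. In the AD set 80 of 81 members were higher with the mixture than with acetophenone in edgeR, against 11.3% of all genes, with a median log2 change of 0.81. Rpl7l1 was the exception, at -0.19 (edgeR adjusted p = 0.128). No member differed between the mixture and decanal in edgeR, where 0.287% of all genes did, and none did at an unadjusted p under 0.05 or by DESeq2. The median log2 change of the mixture against decanal was -0.06. Acetophenone and decanal themselves differed in all 81 members: 80 were lower with acetophenone, against 12.9% of all genes, and Rpl7l1 was higher, against 16.5%, by 0.25 on the log2 scale (SE 0.0886, edgeR adjusted p = 0.0476).

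Rps24 had the smallest p between acetophenone and decanal, with 60.9, 56.0 and 71.6 CPM with acetophenone, against 141, 133 and 135 CPM with decanal, a log2 change of -1.12 (SE 0.111, edgeR adjusted p = 1.3e-05). Rpl23, Rps21 and Rpl35 followed at -0.93, -1.03 and -1.25. Rps24, Rpl23, Rps21 and Rpl30 had the smallest p between the mixture and acetophenone. There Rps24 had 119, 151 and 122 CPM with the mixture, against 60.9, 56.0 and 71.6 CPM with acetophenone, a log2 change of 1.06.

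In the OC set no member differed between the mixture and octanal in edgeR, where 0.0715% of all genes did, and none did at an unadjusted p under 0.05 or by DESeq2. Against cis-3-hexenol 31 of 82 members were lower with the mixture, against 5.03% of all genes, and 27 were lower with octanal, against 8.98%. With receptor scaling 6 were lower with the mixture, and 9 lower and 2 higher with octanal, while DESeq2 called 50 lower with the mixture and 39 with octanal, and the fit without the filter 57 and 49. The median log2 changes were -0.72 and -0.61. Rps12 had 81.3, 122 and 64.6 CPM with the mixture and 56.1, 129 and 73.3 CPM with octanal, against 153, 262 and 467 CPM with cis-3-hexenol, log2 changes of -1.72 and -1.77 (SE 0.357 and 0.358, edgeR adjusted p = 0.00919 and 0.00406). Neither group overlapped cis-3-hexenol for this gene. Rpl32 and Rpl23a fell in both comparisons, by 1.27 and 1.02 with the mixture and by 1.34 and 1.21 with octanal, and Rps7 and Rps18 were the next in order of p, at -1.04 with the mixture and -1.10 with octanal. The counts rest on few libraries. The mixture count was 2 without mixture replicates 1 or 3 or cis-3-hexenol replicate 2, 0 without cis-3-hexenol replicate 3 and 58 without cis-3-hexenol replicate 1. The octanal count was 9 without octanal replicate 1, 16 and 6 without cis-3-hexenol replicates 2 and 3, and 61 and 50 without octanal replicate 2 and cis-3-hexenol replicate 1. In the FM set no member differed between floral and mint, or between floral-mint and either fragrance, in edgeR, at an unadjusted p under 0.05 or by DESeq2, and 0.354%, 0.120% and 0.104% of all genes did in edgeR (floral against mint, floral-mint against floral and floral-mint against mint).

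Rps6 moved less than the median member with decanal, octanal and both binary mixtures. Decanal libraries had 559, 572 and 596 CPM of Rps6 and AD mixture libraries 524, 577 and 625 CPM, against 398, 409 and 415 CPM in controls. Both groups lay above all controls, with log2 changes of 0.50 and 0.50 (SE 0.101 each, edgeR adjusted p = 0.00332 and 0.00364). With acetophenone it had 324, 369 and 436 CPM, a log2 change of -0.11 (edgeR adjusted p = 0.591). In the OC set octanal libraries had 612, 922 and 642 CPM, cis-3-hexenol libraries 719.98, 876 and 1014 CPM and mixture libraries 672.5, 661 and 645 CPM, against 827, 1020.1 and 965 CPM in controls. The mixture lay below all controls, with a log2 change of -0.51 (SE 0.181, edgeR adjusted p = 0.0415), while octanal overlapped them, at -0.37 (edgeR adjusted p = 0.128), and cis-3-hexenol was at -0.11. In the FM set none of its log2 changes was called, at 0.18 (floral), 0.04 (mint) and 0.03 (floral-mint). Scaled against the other members alone, Rps6 was called in none of the 18 comparisons.

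**Figure D3:**
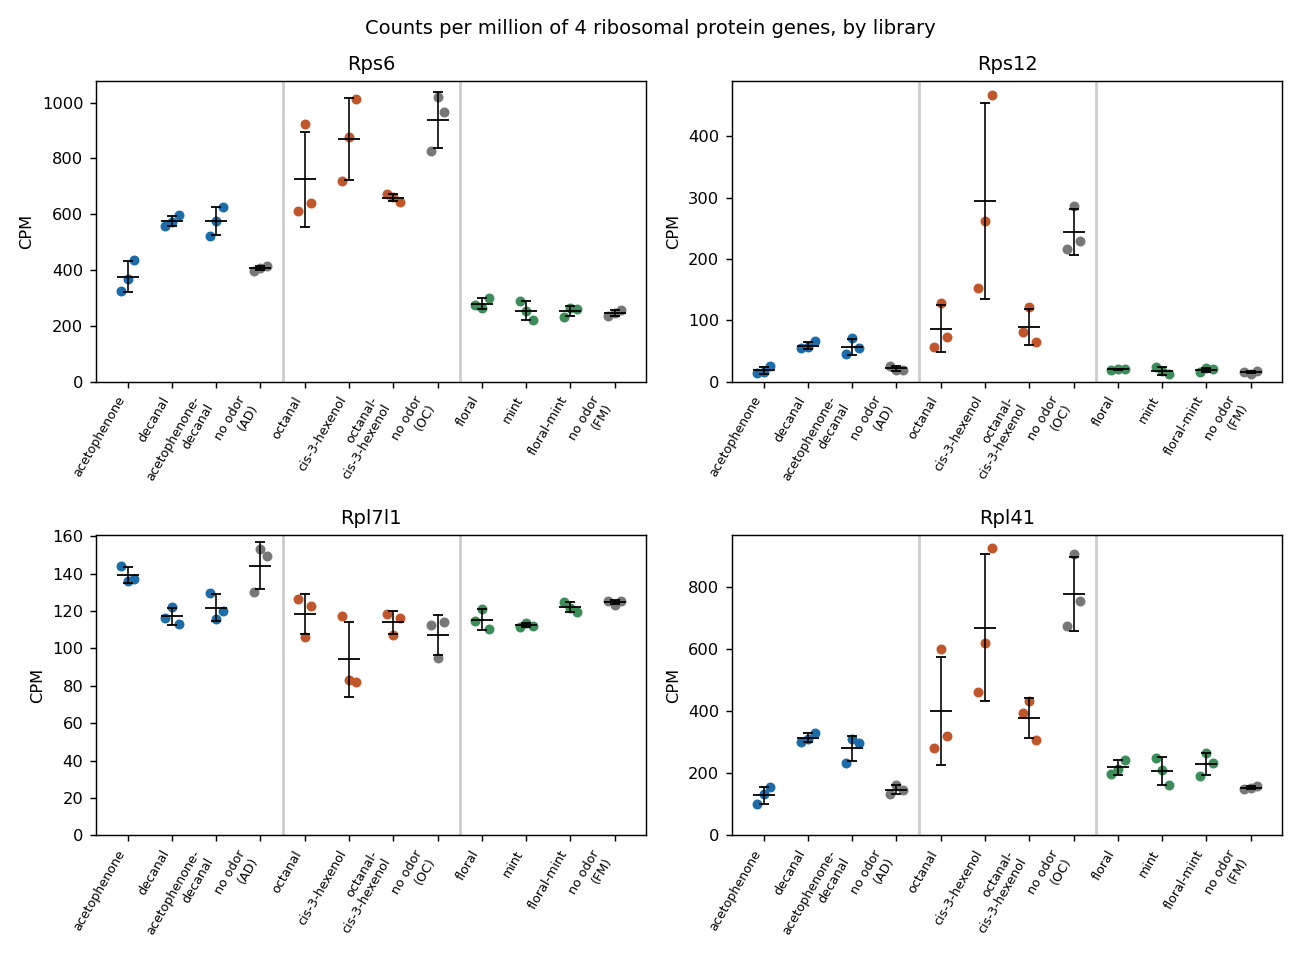
CPM (y axis) of Rps6, Rps12, Rpl7l1 and Rpl41 in each library, with the mean and SD of each group as bars. Rps6, Rps12 and Rpl41 lie above the AD controls with decanal and the AD mixture, while Rpl7l1 has 113 to 122 CPM with decanal, against 130.1 to 153 CPM in AD controls.

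To see which members departed from the set, libraries were also scaled on the members alone, so that each member is tested against the others. With decanal 6 members then rose above the set and 10 fell below it, beside 0.979% and 53.8% of all genes. The largest were Rps12 at 0.78 above (SE 0.167, edgeR adjusted p = 0.00105) and Rpl7l1 at -0.98 (SE 0.157, edgeR adjusted p = 0.000109). Rps20, Rps27 and Rpl41 stood above by 0.60, 0.63 and 0.41. Rpl4, Rpl5 and Rpl3, large subunit proteins, were at -0.50, -0.52 and -0.41. The AD mixture gave 4 above and 10 below, beside 1.32% and 47.9% of all genes, again led by Rps12 at 0.78 and Rpl7l1 at -0.85. With octanal Rps12 was at -0.82 (edgeR adjusted p = 0.0337), beside 1.28% of all genes below, and Rpl7l1 was at 0.93 (edgeR adjusted p = 0.0471), beside 37.1% of all genes above. With decanal and with octanal, Rps12 thus moved further than the set in the direction of the set. Rpl7l1 did not follow the set. Scaled by TMM, its log2 changes were -0.30 with decanal and 0.14 with octanal, the latter not called. No member was called on this scale, by edgeR, with acetophenone (5.94% of all genes higher, 0.359% lower), cis-3-hexenol (0.296% and 0.112%), the OC mixture (38.1% and 1.02%), floral (0.594% and 1.04%), mint (1.08% and 0.568%) or floral-mint (0.916% and 0.927%) against their controls.

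The same scaling separated the components. Between acetophenone and decanal 11 members were higher and 7 lower than the set with acetophenone, beside 62.6% and 1.37% of all genes, with Rpl7l1 at 1.13, Rpl4 at 0.61 and Rpl3 at 0.51 above, and Rps12 at -0.84 and Rps20 at -0.69 below. With octanal against cis-3-hexenol Rps12 was at -1.12, Rpl7 at 0.77 and Rps27l at 0.83 (edgeR adjusted p = 0.0190, 0.0475 and 0.0477), beside 0.583% of all genes below and 17.8% above. With the OC mixture against cis-3-hexenol Rps12 alone was called, at -0.97 (edgeR adjusted p = 0.0407), beside 0.184% of all genes.

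**Figure D4:**
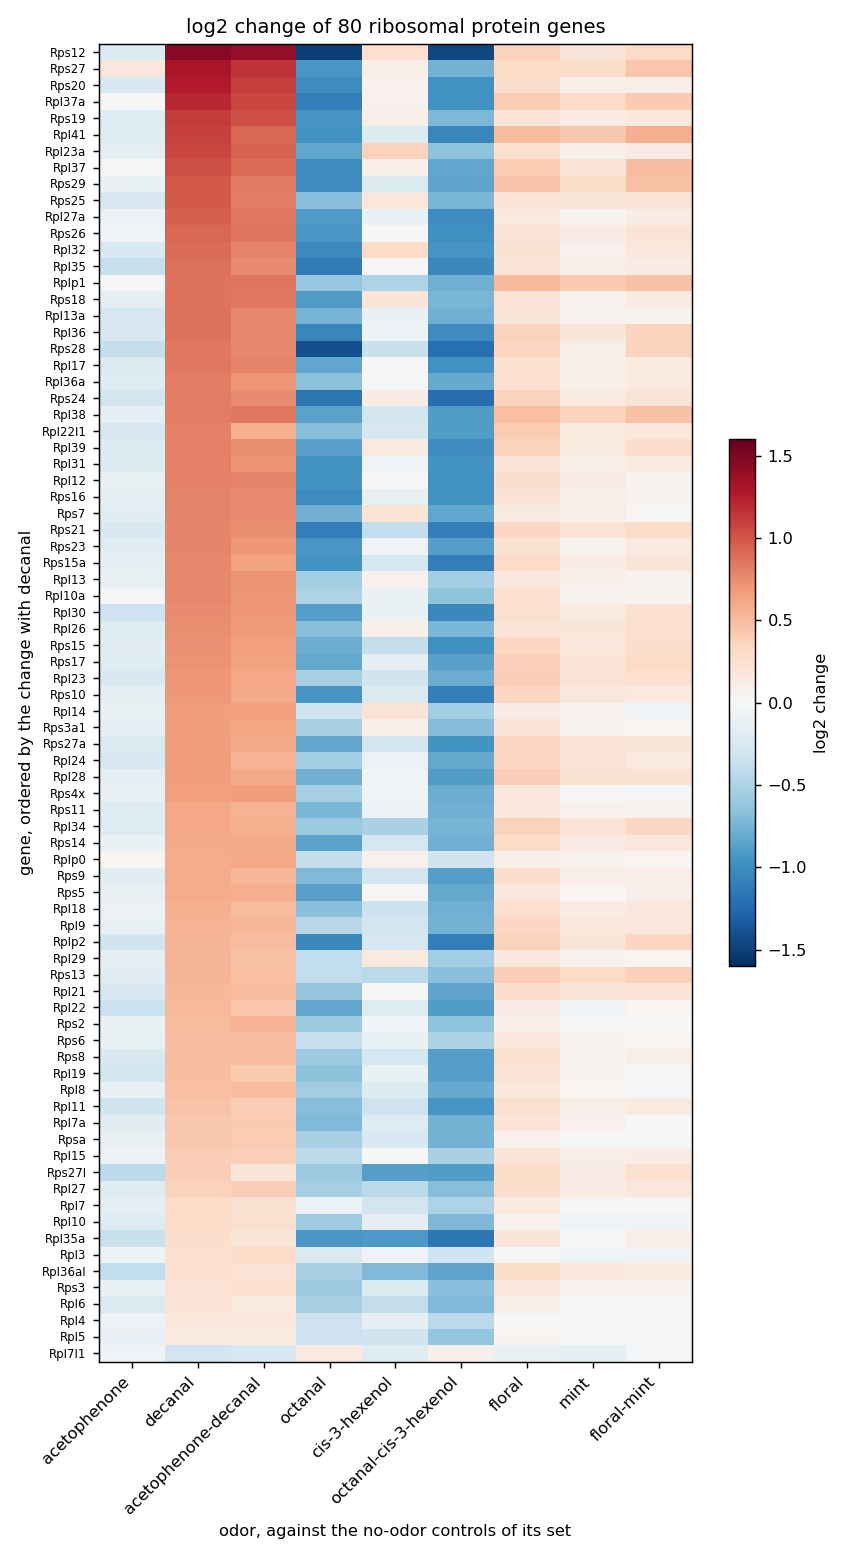
Log2 change (color) of 80 of the 81 members tested in all 3 sets (rows, ordered by the change with decanal) for each odor against the controls of its set (columns). Decanal and the AD mixture are red in nearly every row, octanal and the OC mixture are blue in nearly every row, and Rps12 stands at the top and Rpl7l1 at the bottom.

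Some members come in paralog pairs. Rps27l, a p53-responsive copy of Rps27, had log2 changes of 0.40 with decanal and -0.88 with cis-3-hexenol, while Rps27 had 1.31 and 0.11. Rpl36al, a paralog of Rpl36a, had 0.27 with decanal and -0.71 with cis-3-hexenol, while Rpl36a had 0.82 and -0.02. The differences within these pairs were not tested. Rpl22 and its copy Rpl22l1 had 0.52 and 0.81 with decanal, both called, and -0.83 and -0.68 with octanal, of which Rpl22 was called. Rpl39l had at most 0.648 CPM in any library of the OC set, and its log2 change of -1.67 with the OC mixture had an SE of 1.1 and was not called.

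Length was set beside these changes. Over the tested members, Spearman's rho between transcript length and log2 change was -0.39 with decanal, -0.33 with the AD mixture, 0.48 with octanal, 0.39 with the OC mixture, 0.31 with acetophenone, 0.11 with cis-3-hexenol, -0.51 for both floral and mint and -0.64 for floral-mint, as a description over 81 or 82 genes of the same libraries. Other coding genes under 1000 bases, without members or receptors, are a class chosen after values were seen. Their median log2 change with decanal was 0.17 over 2426 genes, and 20.5% of them were higher and 5.03% lower. For 12919 longer genes the median was -0.10, and 7.93% were higher and 15.8% lower. With octanal the short genes had a median of -0.14, with 14.1% higher and 22.6% lower. The longer genes had -0.01, with 20.4% higher and 14.8% lower. With cis-3-hexenol the short genes had a median of -0.24 and the members -0.11. The part of length in the members' changes was not tested.

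Other genes of the translation machinery were counted for the lists of 28 TOP mRNAs outside the members, 28 ribosome biogenesis genes, 78 mitochondrial ribosomal proteins, 78 nuclear genes of oxidative phosphorylation and 23 tested S6 kinases and regulators. With decanal 16 of the TOP mRNAs were higher and 4 lower, beside 10.8% and 11.5% of all genes, with a median log2 change of 0.29. Fau, which encodes a ribosomal protein fused to a ubiquitin-like protein, rose by 0.73 (edgeR adjusted p = 0.000714), and Eef1b2 and Tpt1 by 0.64 and 1.06. Rack1, a scaffold on the small subunit, and the elongation factors Eef1a1 and Eef2 rose by 0.29, 0.41 and 0.39. With the AD mixture 14 were higher and 4 lower, beside 10.9% and 10.4% of all genes. In both, Cct7, a chaperonin subunit, and Eif3l, an initiation factor subunit, were among the 4 lower, at -0.56 and -0.57 with decanal. With octanal 3 TOP mRNAs were higher and 7 lower, and with the OC mixture 3 were higher and 12 lower, with medians of -0.26 and -0.41. The shares over all genes were 17.9% higher and 14.4% lower with octanal, and 17.7% and 14.8% with the OC mixture. Tpt1 fell by 0.86 and 0.97, while Cct7 and Eif3l were higher by 0.70 and 0.80 with octanal.

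Ribosome biogenesis genes make and assemble the subunits. With decanal 13 of 28 were lower, beside 11.5% of all genes, and none was higher, beside 10.8%, with a median log2 change of -0.32. Nop2, an rRNA methyltransferase, was at -0.77, Pes1, of the large subunit assembly complex, at -0.82, and Nop56, of the box C/D snoRNP, at -0.63 (edgeR adjusted p = 0.000121, 0.000184 and 0.000376). With the AD mixture 12 were lower and none higher, beside 10.4% and 10.9% of all genes. With octanal 8 were higher and 2 lower, led by Ltv1, a small subunit assembly factor, at 1.24, Rrp1 at 0.89 and Bop1 at 0.84, and with the OC mixture 7 were higher and 3 lower. Of all genes, 17.9% were higher and 14.4% lower with octanal, and 17.7% and 14.8% with the OC mixture. At an unadjusted p under 0.05 none was higher with decanal or the AD mixture, and 15 and 17 were lower.

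Genes for the kinases that act on S6 and their regulators were counted the same way. With decanal 4 of 23 were lower, beside 11.5% of all genes, among them Rps6ka1 at -0.65 (edgeR adjusted p = 0.00882) and Tsc2, a brake on mTOR, at -0.69. Rps6ka1 was also lower with the AD mixture, at -0.82, and with floral, at -0.45. Rps6kb1, the main S6 kinase, was at -0.11 with decanal, -0.18 with octanal and -0.16 with floral, and Larp1 at 0.16, 0.34 and -0.04, none of them called. With octanal 2 were higher and 5 lower, led by Eif4ebp1, a translation repressor under mTOR, at -0.74, and Rheb, an activator of mTOR, at 0.89, beside 17.9% of all genes higher and 14.4% lower. Values of Rps6ka4 are not reported here.

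Mitochondrial genes were listed for comparison. Shares over all genes tested, higher and lower in turn, were 10.8% and 11.5% for decanal, 17.9% and 14.4% for octanal. Cis-3-hexenol had 2.58% and 3.16%, floral 8.70% and 5.35%, the mint fragrance 7.10% and 4.07%, floral-mint 6.42% and 3.22%. Of 78 mitochondrial ribosomal proteins, 23 were higher and 4 lower under decanal, and 9 higher and 4 lower under octanal. Under cis-3-hexenol 1 was higher and 18 were lower, and 22 were higher under floral. Of 78 nuclear genes of oxidative phosphorylation, 45 were higher with decanal and 60, 37 and 42 with the floral, mint and floral-mint fragrances, and none was lower in these comparisons in edgeR. At an unadjusted p under 0.05, 1 was lower with decanal, with mint and with floral-mint, and 0 with floral. With octanal 15 were higher and 4 lower, with a median of 0.05, while the members had -0.72. With cis-3-hexenol none was higher in edgeR (2 at an unadjusted p under 0.05) and 14 were lower, with a median of -0.54, while the members had -0.11.

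Markers of other cells also differed between groups. The 8 genes listed for red blood cells, globins among them, summed to 39429 to 42201 CPM with decanal and 30720 to 37263 CPM with the AD mixture, against 15552 to 21024 CPM in controls. Of the 8, 2 and 1 were called higher, beside 10.8% and 10.9% of all genes. With acetophenone, where none of the 8 was called in edgeR and 6 were lower at an unadjusted p under 0.05, the sum was 13148, 2570 and 2861 CPM. In the OC set all 8 were lower with each odor. Octanal libraries summed to 7460 to 23208 CPM, cis-3-hexenol libraries to 19558 to 28159 CPM and mixture libraries to 9105 to 20610 CPM, against 78158 to 92735 CPM in controls. The fall with cis-3-hexenol came with a median member change of -0.11. That median ran from -0.33 to 0.11 when 1 library was left out, and it was lower with receptor scaling. In the FM set 5 of the 8 were higher with floral, beside 8.70% of all genes. The sum of the 8 was 38414 to 74124 CPM with floral, against 30358 to 32977 CPM in controls. None of the 8 was at 0 in any group. All 7 leukocyte markers were lower with octanal, and 6 with the OC mixture, and the 6 bone and cartilage markers were lower with both. Of all genes, 14.4% and 14.8% were lower. The bone and cartilage markers summed to 2594 to 3211 CPM with cis-3-hexenol, against 5199 to 7162.5 CPM in controls. With mint, where the member median was 0.11, they summed to 2837 to 2872 CPM, against 4201 to 5869 CPM in controls. With decanal they summed to 5565 to 6743 CPM, against 4400 to 6046 CPM in controls. The part of these cells in the members' changes was not tested.

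**Figure D5:**
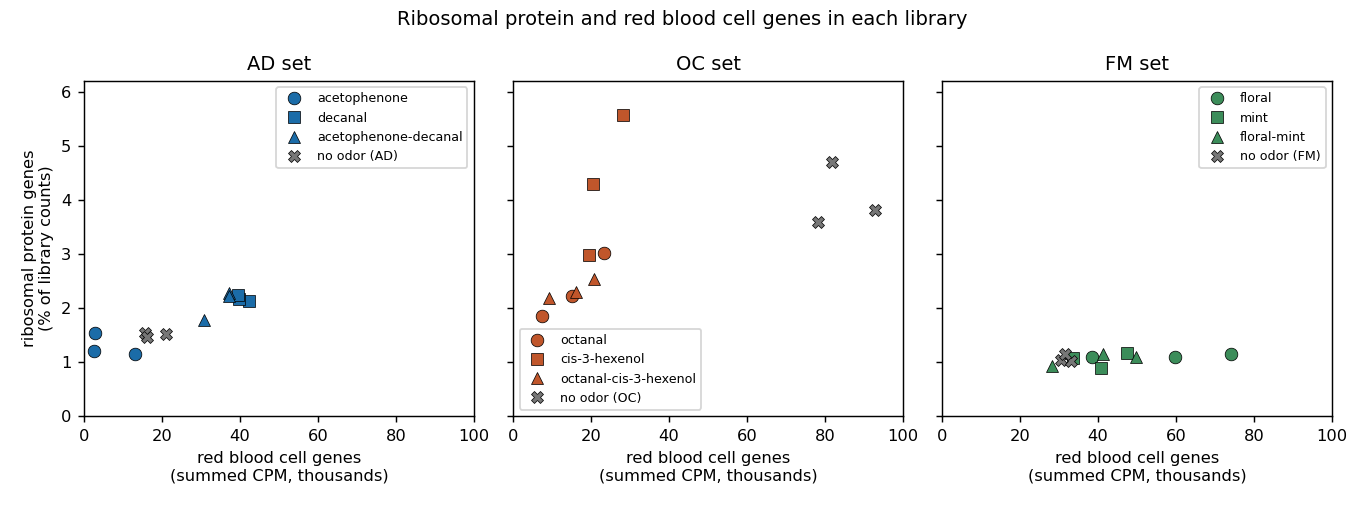
Share of counts on ribosomal protein genes (y axis, percent) against the summed level of 8 red blood cell genes (x axis, summed CPM divided by 1000) in each library of the 3 sets. Both are higher with decanal and the AD mixture than in AD controls, while in the OC set cis-3-hexenol has 19558 to 28159 CPM of red blood cell genes at shares of 2.99% to 5.58%.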

How the data were processed

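RNA from pS6 immunoprecipitates of mouse olfactory epithelium was sequenced in 36 libraries. The authors deposited expected counts per gene, in 1 table per set. Per the submitters' processing notes, STAR 2.7.10b, Salmon 1.10.1 and R 4.4.2 were used with build GRCm39; the annotation is not given in the sources used here. Gene names came from GENCODE vM21, which matched 52029 of 57010 identifiers. Per the labels' protocols, a stranded mRNA kit was used.

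Expected counts were rounded to whole numbers and each set of 12 libraries was fitted alone, with its 4 groups, in edgeR 4.0.16 (R 4.3.3): genes were kept with filterByExpr (minimum count 10, total 15), scaled by TMM and tested 2-sided by the quasi-likelihood F test. Benjamini-Hochberg adjustment ran over all genes tested, and an adjusted p under 0.05 is a call. The SE is the log2 change divided by the square root of F. CPM values use TMM-scaled library sizes. Shares of counts were compared by exact permutation tests. The fit was tested on simulated data. Alternatives were RLE factors, TMM without the members, scaling to the median olfactory receptor gene or on the members alone, no filter, DESeq2 1.42.0, a replicate block, and leaving out each library.

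Named members are Rps6, Rplp0 to Rplp2, Rpsa, the paralogs, and those with the smallest p or the largest change in a comparison. The members and lists were chosen with earlier results of these data known. Depth limits the 3 paralogs with few counts. The replicates are biological per the labels. Correlations of deviations between libraries of the same number ran from -0.289 to 0.248, so the numbers were not taken to pair libraries. Values of 2 single genes are not reported here.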

Additional observations from a re-analysis of the deposited data

How the results depend on the processing

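Fits with RLE factors or TMM without the members left each count of calls within 1.5 times. Scaling to the median receptor gene gave 0 calls with acetophenone, 33 with cis-3-hexenol, 0 with floral, 0 with floral-mint, 11 for octanal (2 higher, 9 lower) and 6 for the OC mixture against cis-3-hexenol, and median log2 changes of 0.74 with decanal, -0.61 with cis-3-hexenol, -1.25 with the OC mixture, -1.07 for acetophenone against decanal and 1.00 for the AD mixture against acetophenone. That scaling moved the median of all genes by -0.51 with the OC mixture, -0.47 with cis-3-hexenol and -0.20 with octanal. Scaling on the members alone, which centers the set by construction, gave 16 calls with decanal, 14 with the AD mixture, 18 for acetophenone against decanal, 15 for the AD mixture against acetophenone, 2 with octanal, 3 for octanal and 1 for the OC mixture against cis-3-hexenol, and 0 with acetophenone, cis-3-hexenol, the OC mixture, floral and floral-mint. DESeq2 gave 9 calls with acetophenone, 20 with floral, 3 with mint, 9 with floral-mint and 50 for the OC mixture against cis-3-hexenol. Without the filter there were 27 with floral, 4 with mint, 12 with floral-mint, 49 for octanal and 57 for the OC mixture against cis-3-hexenol. The causes were not tested.

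With the replicate number as a block, calls were 0 with acetophenone, 74 with decanal, 71 with the AD mixture, 64 with octanal, 3 with cis-3-hexenol, 75 with the OC mixture, 1 with floral, 0 with mint, 1 with floral-mint, 43 for octanal and 44 for the OC mixture against cis-3-hexenol.

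Leaving out 1 library at a time gave 0 to 8 calls with acetophenone, 69 to 74 with decanal, 68 to 71 with the AD mixture, 0 to 2 with cis-3-hexenol, 15 to 78 with octanal, 21 to 70 with the OC mixture, 0 to 2 with floral, 0 to 12 with mint, 0 to 8 with floral-mint, 6 to 61 for octanal and 0 to 58 for the OC mixture against cis-3-hexenol. The share difference turned sign with cis-3-hexenol (-0.399 to 0.898 points; -0.399 without cis-3-hexenol replicate 3), with mint (-0.0934 to 0.0501; 0.0501 without mint replicate 3 and 0.00871 without FM control replicate 3) and with floral-mint (-0.0523 to 0.0503; 0.0503 without floral-mint replicate 1 and 0.0257 without FM control replicate 3).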
